A study of Arabidopsis thaliana with 8 samples.

Results

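Transcript levels in phloem sieve cells with companion cells were compared with those in cortex, both sorted from Arabidopsis thaliana roots. The comparison rests on 5 of the 8 arrays of the study, namely the 2 arrays titled phloem sieve cells and companion cells and the 3 arrays titled cortex, and covers every probe set other than the controls, 22746 in all. The other 3 arrays hold differentiating xylem and entered the fit only through the shared estimate of the spread. All plants were wild type Columbia carrying a green fluorescent protein (GFP) marker, which line marked which population is not named in the labels used here, and the seedlings were 6 days old and grown at 22 degrees Celsius. Root tips of about 1 cm were turned into protoplasts, that is, cells freed of their walls by enzymes, and GFP-bearing protoplasts were collected on a fluorescence-activated sorter. RNA was amplified before hybridisation to Affymetrix arrays with 22810 probe sets. Arrays of the same population are labelled as biological replicates, and the labels do not say which plants each came from, so p-values measure the spread between these arrays. The stated purpose was a root expression map of cell types that do not overlap, for comparison with imaged promoter fusions.

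Sieve elements are the conducting cells of the phloem. They lose their nucleus as they mature and depend on neighbouring companion cells, which supply proteins and move sugars across their membranes. Cortex cells lie outside the endodermis, store solutes in large vacuoles and hold much of the root's chemistry for conjugating and storing small molecules. A sorted population is a bulk sample, in which fewer cells of a type and less RNA per cell cannot be told apart.

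Values are array intensities, in the arbitrary units in which they were deposited. Differences are log2 fold changes of (intensity + 16), phloem minus cortex, with a standard error (SE) and a Benjamini-Hochberg adjusted p-value from limma, a linear model with moderated variances. Genes are called higher or lower at an adjusted p under 0.05. Among all 13355 genes 1564 (11.7%) were higher and 1671 (12.5%) lower, and family counts below are to be read beside these shares. Without detection calls, an intensity near or below 16 is not shown to exceed background, and the added 16 makes the fold change of such genes smaller than the ratio of their intensities. In each gene named as higher or lower, the phloem arrays lay all above or all below the cortex arrays, which for most of them was a condition of being named.

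Arrays of a population resembled each other more than arrays of different populations. Pearson's r, taken over probe sets and thus over values that are not independent, was 0.9834 between the phloem arrays, 0.9739 to 0.9838 among the cortex arrays and 0.8395 to 0.8573 between a phloem and a cortex array. The median intensity was 73.62 and 70.34 in phloem and 61.39 to 62.44 in cortex. Ratios of 3' to 5' control probe sets, which reflect RNA quality and amplification, differed between the populations. For GAPDH the ratio was 5.905 and 8.79 in phloem against 1.984 to 2.598 in cortex, and 2.145 and 1.769 against 1.212 to 1.494 with the array's revised control set. For actin it overlapped, at 23.1 and 21.3 against 18.15 to 24.63, and with the revised set it was 7.479 and 8.638 against 5.214 to 6.313. For ubiquitin it was lower in phloem, 3.41 and 4.186 against 4.57 to 4.921, also with the revised set, 2.085 and 2.456 against 2.655 to 2.806. The part of these control differences in the results below was not tested.

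Most measured marker genes followed the labels of both populations. The lists were chosen with earlier results of these data known, so this is not independent support for the labels. Of 35 genes on a list for sieve and companion cells, 8 had a probe set listed with 1 gene, and 7 of these were higher in phloem (1564 of 13355 genes, 11.7%, were higher among all genes) and none lower, with a median log2 fold change of 2.34. The summed intensity of the 8 was 4870 and 5143 in phloem and 346 to 388 in cortex. Among the 8, SWEET11, which acts in phloem parenchyma in leaves, gave 1470 and 2371 in phloem. The peptide gene CLE26 (AT1G69970) was among them, at 909 and 637 in phloem and 1.74, 8.76 and 2.59 in cortex. OPS, which acts in protophloem differentiation, stayed under 16 on every array and did not pass. Of the 7 calls, 4 were kept when either phloem array was left out, and CLE44, AT3G15680 and AT5G02460 lost theirs without phloem replicate 1 or 2 (adjusted p = 0.0603 to 0.0908).

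Of 10 cortex and ground tissue genes 5 were measured, and 4 were lower in phloem (1671 genes, 12.5%, among all genes), all of them also when either phloem array was left out. The summed intensity of the 5 was 154 and 143 in phloem and 3848 to 4852 in cortex. JKD (AT5G03150), a transcription factor that helps pattern the ground tissue, stood at 42.4 and 31.5 in phloem and 277, 225 and 161 in cortex. AT1G62500 was dim in both and did not pass.

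Markers of cells that neither sort was labelled for were also measured. AT4G30450, on the pericycle list and its only measured member of 5, stood at 1508 and 3226 in phloem and 116, 183 and 149 in cortex. It was thus higher in phloem by 3.77 (SE 0.40, limma adjusted p = 0.000186). The 2 measured root hair genes of 9, the expansins EXPA7 and EXPA18, summed to 270 and 400 in phloem and 94 to 133 in cortex and were higher by 1.38 (SE 0.32) and 1.29 (SE 0.30). Both calls were lost without phloem replicate 2 (adjusted p = 0.116 and 0.11). The mitotic kinase AUR1 was higher by 1.23 (SE 0.23), a call lost without phloem replicate 2 (adjusted p = 0.0514), and AUR2 at 0.75 (SE 0.24) did not pass (adjusted p = 0.0506). Of 12 endodermis genes the receptor kinase GSO1 (AT4G20140) was lower at -1.77 (SE 0.23) and AT1G61590 at 0.70 (SE 0.34) did not pass. The root cap gene AT1G65570, the only measured member of 5, stood at 365 and 132 in phloem and 45.1, 19.6 and 31.4 in cortex and did not pass (adjusted p = 0.0592). Of 17 genes of xylem and secondary walls 5 were measured, and they summed to 295 and 312 in phloem, 353 to 567 in cortex and 15372 to 17571 in xylem. The part of such cells in the differences below was not tested.

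Across the array 6140 of 22746 probe sets (27.0%) differed, 2781 higher in phloem (12.2%) and 3359 lower (14.8%), and by gene 3235 of 13355 (24.2%) did. Differences of at least 2-fold were evenly split, with 2084 higher (9.16%) and 2140 lower (9.41%). The largest were not. At 4-fold and above 948 were higher and 411 lower, at 8-fold 483 (2.12%) and 96 (0.422%), at 16-fold 255 and 25, and at 32-fold 146 and 6. At 128-fold and above 34 were higher and 0 lower, and in the lower direction 1 probe set passed 64-fold against 80 in the higher.

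This asymmetry at 8-fold and above kept its direction under every alternative except limma's test against 2-fold, for which it was not counted. It was narrowest after scaling on the spike-in controls, with 366 higher and 212 lower, and stood at 743 and 183 with 1 added in place of 16 and at 278 and 43 with 64. At 4-fold it turned over after spike-in scaling, to 703 higher and 1067 lower. Probe sets at least 8-fold higher in phloem had a median intensity of 26.8 in cortex and 966 in phloem. Those at least 8-fold lower had a median of 60 in phloem and 1148 in cortex. Taken per probe set, the dimmer population had a median of 3.14% and 6.39% of the brighter. At 2-fold and above, 2084 of all probe sets were higher and 2140 lower. Among those whose lower population mean lay above the median probe set (75.9), 716 were higher and 1519 lower. This rule removes probe sets dim in either population, so its 2-fold counts cannot show whether the 8-fold asymmetry holds among bright probe sets. With the filter that kept probe sets above the median intensity, 468 were at least 8-fold higher and 96 at least 8-fold lower. The share of calls that were higher was 45.3% as deposited, 33.1% with each array centred on its median, 20.4% with spike-in scaling and 66.8% when limma tested against a 2-fold difference. The median of all probe sets was -0.03 as deposited and -0.20, -0.38, -0.08 and 0.03 after median centring, spike-in, quantile and trimmed-mean scaling.

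**Figure D1:**
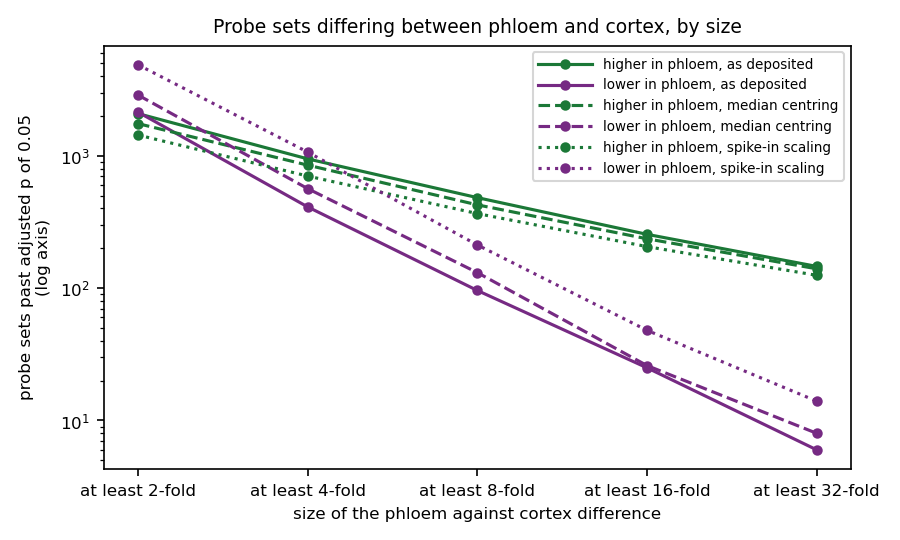
Number of probe sets past an adjusted p of 0.05 (log axis) by the least size of the difference, for higher (green) and lower (purple) in phloem, as deposited and under 2 other scalings. As deposited the lines meet at 2-fold (2084 and 2140) and part to 146 and 6 at 32-fold.

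Most genes on the array are named by a locus tag only, 11798 of 13355, and 2724 of these (23.1%) differed against 511 of 1557 genes with a symbol (32.8%). The 12 genes with only a locus tag that were highest in phloem were bright there and near the floor in cortex. AT1G05770 stood at 7173 and 6087 in phloem and 2.45, 3.04 and 3.14 in cortex, the largest difference of any probe set. Its log2 fold change was 8.46 (SE 0.24, limma adjusted p = 5.37e-07), and 10.74 or 6.64 with 1 or 64 added. AT4G09950 followed at 6110 and 4371 against 13.2, 1.83 and 2.73, a difference of 7.92 (SE 0.38). AT5G02140 differed by as much, at 5546 and 3931 against 2.36, 1.89 and 6.02.

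AT2G27140 was the brightest of these genes in phloem, at 8181 and 9245, with 22.5, 27.9 and 20.2 in cortex and a difference of 7.79 (SE 0.43). The remaining 8, AT3G10680, AT1G61760, AT3G47180, AT4G12580, AT3G17380, AT1G63310, AT5G18970 and AT4G37445, were higher by 7.28 to 7.71, with every phloem array at 3840 or more and every cortex array at 44.3 or less. Beside these values, the means of the xylem arrays were also low for all 12 genes, from 5.9 for AT1G61760 to 92 for AT5G18970. The order of the 12 depends on the added 16, and their calls held under every setting.

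On the cortex side, genes with only a locus tag reached lower folds. AT1G62510, a cortex list gene, was at 2.59 and 15.3 in phloem and 1304, 1118 and 962 in cortex, the largest difference in this direction among genes with 1 name, at -5.56 (SE 0.26, limma adjusted p = 1.98e-06). AT3G05150, at 46.3 and 32.6 against 2470, 2561 and 2533, was lower by nearly as much, -5.53 (SE 0.18). AT5G11420 at -5.51 (SE 0.22) and the cortex list gene AT1G09750 at -5.47 (SE 0.22) came next. In each of these genes the phloem arrays lay far below the cortex arrays without touching them.

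AT3G21670, also named NPF6.4 and a member of the nitrate and peptide transporter family, was nearly dark in phloem. Its intensities were 2.8 and 6.21 in phloem and 631, 497 and 610 in cortex, a difference of -4.86 (SE 0.22, limma adjusted p = 1.64e-06). The other 7 genes by this rule were AT3G55720, AT1G76470, AT2G45180, AT5G62210, AT2G23910, AT5G65380 and AT3G32030, with differences of -4.76 to -4.14. AT3G32030 is measured by a probe set that can bind related transcripts. Beside these values, the xylem means of the 12 genes ran from 1.9 for AT1G62510 to 216 for AT3G55720, which alone exceeded 50.

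The same held more widely as a description, the xylem arrays having entered the fit only through the spread. Of the 483 probe sets at least 8-fold higher in phloem, the xylem mean on the log2 scale lay nearer to cortex for 384 and nearer to phloem for 99. Of the 96 at least 8-fold lower in phloem, it lay nearer to phloem for 89 and nearer to cortex for 7. The xylem mean lay below both populations for 137 of the 483 and for 70 of the 96. These probe sets were chosen for a wide gap between phloem and cortex, and no share over all probe sets stands beside the counts.

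**Figure D2:**
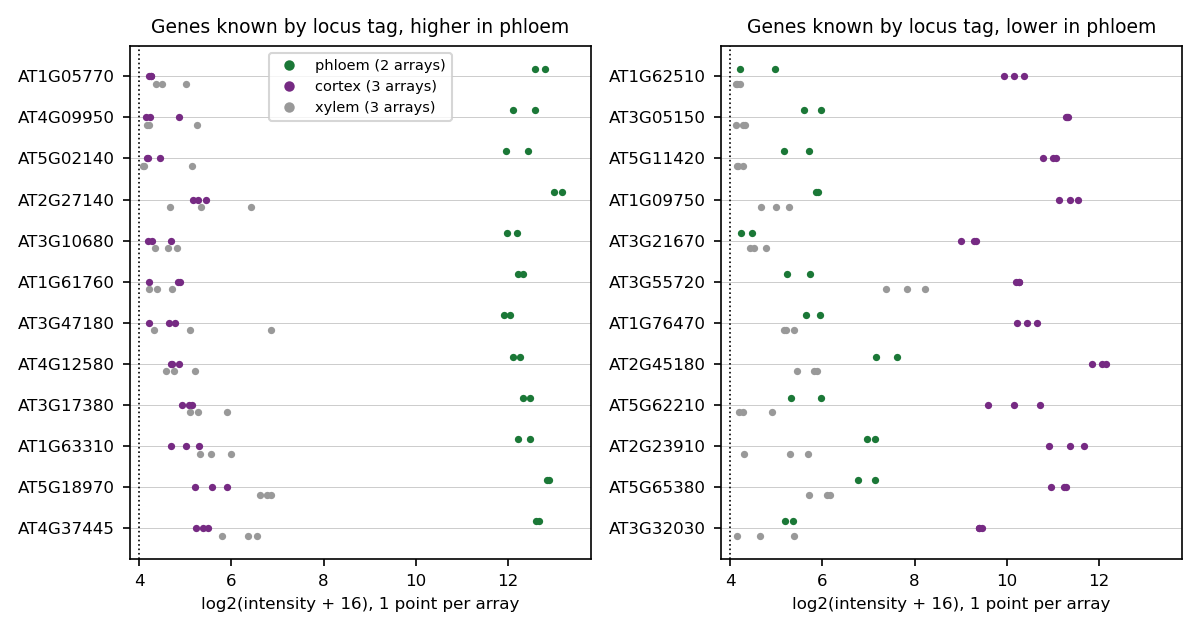
Log2(intensity + 16) on every array for the 12 genes with only a locus tag that were highest (left) and the 12 that were lowest (right) in phloem. Phloem is green, cortex purple and xylem grey, and the dotted line marks an intensity of 0. Phloem arrays stand alone at the right in the left panel, and cortex arrays stand alone at the right in the right panel.

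Genes whose lower population mean lay above the median probe set (75.9) gave differences on which the added 16 has less weight. AT4G16400 led on the phloem side at 5803 and 4925 against 112, 172 and 70.1 in cortex, a difference of 5.39 (SE 0.29, limma adjusted p = 4.33e-06). The subtilase SBT4.12 (AT5G59090), of a family of secreted proteases, stood at 6656 and 7731 against 127, 243 and 363, higher by 4.90 (SE 0.42). AT3G11930, AT3G21770, AT3G54040, AT5G03610, AT2G32190 and AT5G51260 were higher by 5.27, 4.91, 4.59, 4.47, 4.39 and 4.25. AT3G54040, at 2975 and 2351 in phloem, is the gene of this set with the highest xylem mean, 5391.

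On the cortex side of this set AT2G45180 led, at 181 and 127 in phloem and 4502, 4242 and 3666 in cortex, with -4.63 (SE 0.21, limma adjusted p = 1.66e-06). AT4G22460 at -3.77 (SE 0.22), AT1G73620 at -3.65 (SE 0.46) and AT3G54400 at -3.64 (SE 0.57) were also lower, with the aspartic protease NANA (AT3G12700) at -3.74 (SE 0.33). CHIL (AT5G05270), a chalcone isomerase-like protein of flavonoid synthesis, stood at 285 and 177 against 3168, 3195 and 2687. Of 9 flavonoid and phenylpropanoid genes measured CHIL was the lower one, and HCT was higher by 0.86. HCT lost its call in 14 of the 20 alternative settings. Among these were both other added constants, median, trimmed-mean and spike-in scaling, and leaving out any 1 phloem or cortex array.

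Sugar transporters split within families. Of 19 measured, 7 were higher (11.7% of all genes) and 4 lower (12.5%) in phloem. Their median of 0.04 moved to -0.14 and -0.35 with median centring and spike-in scaling. When either phloem array was left out, 4 of the higher and 3 of the lower calls were kept. SWEET proteins are channels that let sugars pass across membranes, and TMT proteins pump sugars into the vacuole.

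SWEET11 (AT3G48740), which exports sucrose from phloem parenchyma in leaves, stood at 1470 and 2371 in phloem and 79.8, 76.9 and 104 in cortex. SWEET3 (AT5G53190) was higher by 3.34 (SE 0.29, limma adjusted p = 6.29e-05) and SWEET14 (AT4G25010), at 143 and 126 against 6.37, 5.76 and 8.93, by 2.71 (SE 0.24). The vacuolar members SWEET16 and SWEET17 went the other way. SWEET16 (AT3G16690) stood at 92.7 and 112 in phloem and 430, 512 and 903 in cortex, lower at -2.35 (SE 0.31), and SWEET17 (AT4G15920) was lower at -1.99 (SE 0.26).

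The vacuolar pumps differed in opposite directions. TMT1 (AT1G20840) stood at 363 and 335 in phloem and 3015, 2741 and 2357 in cortex, a difference of -2.89 (SE 0.36, limma adjusted p = 0.000466). TMT2 (AT4G35300) stood at 481 and 396 in phloem and 36.1, 37.3 and 53.8 in cortex, a difference of 2.97 (SE 0.25, limma adjusted p = 5.6e-05). In neither gene did the arrays of the populations overlap, and the differences ran from -3.46 to -2.74 and from 2.24 to 3.36 over the settings tried. TMT3 was higher by 1.03 (SE 0.22), a call lost without phloem replicate 1 (adjusted p = 0.0782) and after spike-in scaling. SWEET2, SWEET8 and SWEET13 passed with all arrays and lost the call when a phloem array was left out (adjusted p = 0.0753 to 0.23).

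Among 11 measured members of the nitrate and peptide transporter family, 2 were higher (11.7% of all genes) and 2 lower (12.5%). GTR2 (AT5G62680), which carries glucosinolates, stood at 1536 and 1214 in phloem and 480, 614 and 618 in cortex, higher by 1.25 (SE 0.21). GTR1, of the same function, was at -0.99 and did not pass. AT1G59740, also named NPF4.3, was higher by 1.74 (SE 0.31), while AT2G26690, also named NPF6.2, stood at 302 and 299 against 1192, 1293 and 1104 and was lower at -1.93 (SE 0.20), with NPF6.4 above.

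Of 19 ion and metal transporters and channels 3 were higher (11.7% of all genes) and 1 lower (12.5%). ZIP6 (AT2G30080), of a family that imports zinc and iron, stood at 250 and 238 in phloem and 41.3, 38.5 and 39.6 in cortex, higher by 2.22 (SE 0.18, limma adjusted p = 4.36e-05). Glutamate receptor-like channels carry calcium into cells and pass wound signals along veins. GLR3.3 was higher by 1.18 (SE 0.25), a call lost without phloem replicate 1 (adjusted p = 0.0812) and after spike-in scaling, and GLR3.5 (AT2G32390), at 39.6 and 42.6 against 206, 164 and 127, was lower at -1.65 (SE 0.23). The organic cation carrier OCT5 (AT1G79410), which is not among the 19, was lower at -2.87 (SE 0.24), at 97.3 and 113 against 1041, 705 and 898.

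Of 32 genes for small secreted peptides 8 were higher (11.7% of all genes) and 1 lower, and 23 did not pass, with a median of 0.15. After spike-in scaling 5 were higher and 6 lower, and 5 of the 8 kept the call without either phloem array. RALF peptides raise the pH of the wall, and defensin-like peptides of the LCR family are rich in cysteine. RALFL32 (AT4G14010) stood at 1428 and 2182 in phloem and 12.4, 24 and 30.8 in cortex, higher by 5.57 (SE 0.31, limma adjusted p = 4.45e-06). RALFL34 (AT5G67070), at 319 and 259 against 1014, 795 and 819, was lower at -1.55 (SE 0.28).

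Both LCR genes that differed were bright. LCR68 (AT2G02130) stood at 6584 and 7638 in phloem and 310, 376 and 484 in cortex, higher by 4.15 (SE 0.33), and LCR69 (AT2G02100) at 1072 and 1489 against 73.5, 74.5 and 98.3, higher by 3.71 (SE 0.21). CLE41 (AT3G24770), whose peptide is made in phloem and keeps the neighbouring procambium dividing, was higher by 2.84 (SE 0.21). The other members that passed, CLE21, CLE44 and PDF1.2b, each lost the call when a phloem array was left out.

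CML30 (AT2G15680), a calmodulin-like calcium sensor, stood at 3906 and 3106 in phloem and 21.3, 26.2 and 17 in cortex, higher by 6.55 (SE 0.22, limma adjusted p = 5.37e-07), among 8 measured of which 1 more, CML41, passed with all arrays and not without phloem replicate 1 (adjusted p = 0.0922) or 2 (adjusted p = 0.056). IQD proteins bind calmodulin and associate with microtubules. Of 15 measured 4 were higher and 5 lower, where 24.2% of all genes differed, and 3 and 2 of these calls were kept without either phloem array. The gene listed as iqd33 (AT5G35670) stood at 1060 and 799 in phloem and 2.97, 0.719 and 3.66 in cortex, higher by 5.67 (SE 0.34), and its xylem mean was 867. IQD19 (AT4G14750), at 74.1 and 87.3 against 431, 357 and 336, was lower at -2.01 (SE 0.30).

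Tetraspanins, membrane proteins that form domains in the plasma membrane, split evenly. Of 15 measured 3 were higher (11.7% of all genes) and 3 lower (12.5%). TET5 (AT4G23410) and TET6 (AT3G12090) were higher by 3.01 (SE 0.32) and 2.73 (SE 0.28), TET6 at 961 and 913 against 164, 137 and 91.7. TET7 (AT4G28050), at 237 and 243 against 1263, 979 and 1134, was lower at -2.15 (SE 0.21), and TET3 (AT3G45600) at -1.84 (SE 0.25).

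**Figure D3:**
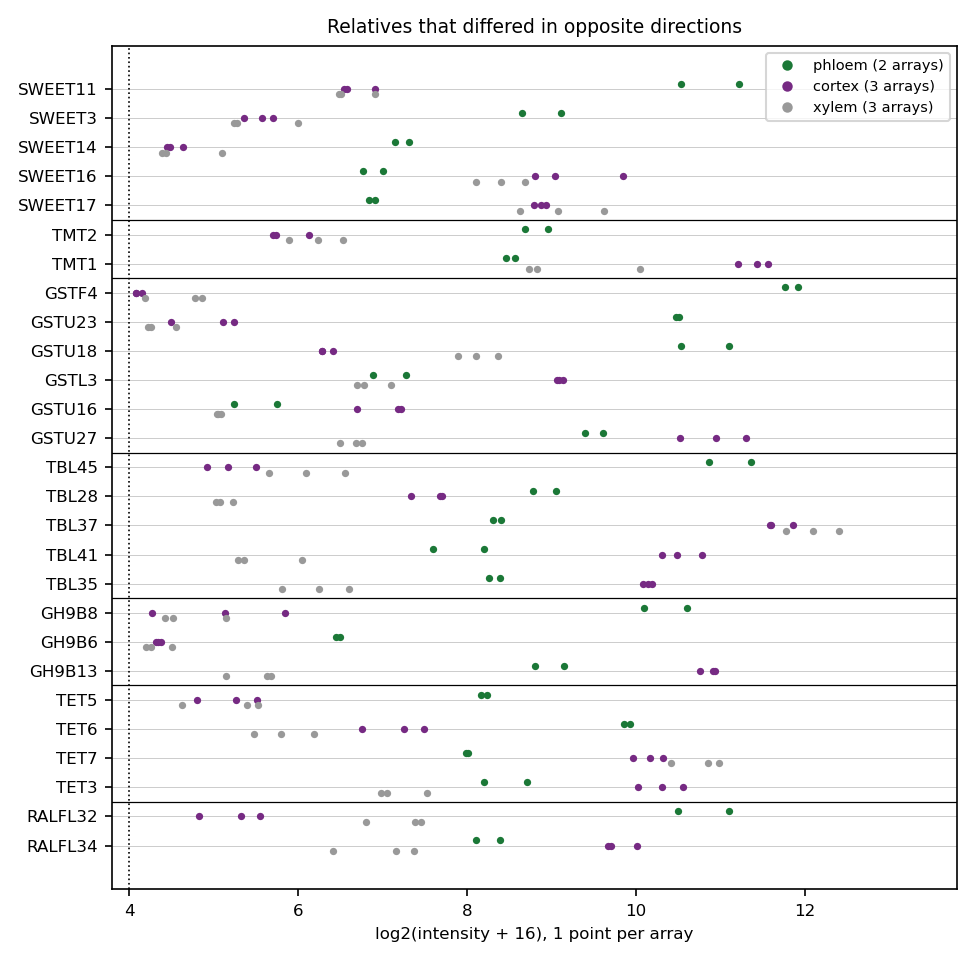
Log2(intensity + 16) on every array for genes of 6 families and for the TMT pair, chosen because relatives differed in opposite directions. Phloem is green, cortex purple and xylem grey, levels compare within a row only, and the dotted line marks an intensity of 0. Phloem and cortex arrays do not overlap in any row, and their order turns between relatives such as TMT2 and TMT1.

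Few genes for regulators were measured by name. ATC (AT2G27550) is a relative of TERMINAL FLOWER 1 whose transcript moves in the phloem and delays flowering. With the constant added here, ATC had the largest log2 fold change of any gene with a symbol. Its intensities were 8697 and 9941 in phloem and 8.81, 21 and 42.5 in cortex, higher by 7.95 (SE 0.37, limma adjusted p = 1.82e-06). GSTF4 was next at 7.74 (SE 0.25), and NTL (AT1G11570), of the nuclear transport factor 2 family, followed at 6.81 (SE 0.40). The order of ATC and GSTF4 depends on the added constant. The cortex mean was 0.259% of the phloem mean for ATC and 0.0327% for GSTF4, so GSTF4 differed more by the ratio of intensities. Of 7 bHLH factors 3 were higher (11.7% of all genes) and none lower as deposited. After median centring or spike-in scaling, or without cortex replicate 1, 1 was lower. The 3 higher genes, bHLH104 (AT4G14410), bHLH34 (AT3G23210) and ILR3 (AT5G54680), belong to a subgroup that activates the iron deficiency response. bHLH104 stood at 1182 and 1396 in phloem and 464, 517 and 573 in cortex, higher by 1.29 (SE 0.18, limma adjusted p = 0.000818), and bHLH34 was higher by 1.26 (SE 0.22). ILR3, higher by 0.86 (SE 0.25), lost its call in 9 of the 20 alternative settings. Median centring, spike-in scaling and leaving out any 1 phloem or cortex array were among those settings. A relative of the 3 genes, bHLH115, was at -0.49 and did not pass.

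Of 20 bZIP factors 3 were higher and 4 lower, and 1 kept the call without either phloem array. This was bZIP44 (AT1G75390), at 3546 and 2891 in phloem and 567, 453 and 343 in cortex, higher by 2.80 (SE 0.24, limma adjusted p = 6.22e-05). Of all genes 11.7% were higher and 12.5% lower, and of 7 WRKY factors 3 were higher and 2 lower. WRKY6 (AT1G62300), which acts in phosphate and defence responses, was the member that kept its call, at 382 and 320 against 837, 1243 and 2002, lower at -1.82 (SE 0.34). WRKY22 was higher by 2.04 (SE 0.61), a call lost in 7 of the 20 alternative settings. Spike-in scaling and leaving out either phloem array were among those settings.

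Of 48 MADS, GRAS, TCP and LBD factors 6 were higher and 1 lower, 12.5% and close to the 11.7% of all genes for the higher ones, and 5 higher and 6 lower after median centring. AGL18 (AT3G57390), a MADS factor, was higher by 1.50 (SE 0.22). LBD16 (AT2G42430) and LBD29 (AT3G58190), which act in the initiation of lateral roots downstream of auxin, were higher by 1.45 (SE 0.23) and 1.46 (SE 0.29), LBD16 at 405 and 655 against 162, 171 and 206.

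Auxin response genes gave both directions, 3 higher and 2 lower of 13 (11.7% and 12.5% of all genes were). IAA18 (AT1G51950), an Aux/IAA repressor, stood at 415 and 412 in phloem and 89.8, 71.2 and 66.9 in cortex, higher by 2.23 (SE 0.38, limma adjusted p = 0.00262). The lower genes were GH3 enzymes, which join auxin to amino acids. GH3.3 (AT2G23170) stood at 122 and 120 against 1281, 1845 and 1557, and GH3.17 (AT1G28130) at 279 and 233 against 1113, 1142 and 641, lower at -1.81 (SE 0.33). GH3.1 and GH3.9 did not pass.

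Glutathione S-transferases, which attach glutathione to reactive compounds, split in direction, with the wide gaps on the phloem side. Of 13 measured 4 were higher and 3 lower (11.7% and 12.5% of all genes were). GSTF4 (AT1G02950) stood at 3865 and 3469 in phloem and 1.71, 0.983 and 0.896 in cortex. GSTU23 (AT1G78320), at 1403 and 1443 against 18.6, 6.6 and 21.7, was higher by 5.54 (SE 0.27), and GSTU18 (AT1G10360) by 4.49 (SE 0.22). On the other side GSTL3 (AT5G02790) stood at 139 and 102 against 521, 546 and 530, lower at -2.02 (SE 0.20, limma adjusted p = 0.000118). GSTU16 and GSTU27 were lower at -1.53 (SE 0.25) and -1.42 (SE 0.23). GSTU20 was higher by 0.69 (SE 0.19) and lost the call without phloem replicate 1 (adjusted p = 0.0785) or 2 (adjusted p = 0.114).

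UDP-glycosyltransferases join sugars to hormones, phenolics and other small molecules. Of 51 measured 3 were higher in phloem and 16 lower, 31.4% against 12.5% of all genes, with a median of -0.52. The lower members outnumbered the higher under every scaling, filter and left-out array tried, with 13 and 8 lower without phloem replicate 1 and 2 and 7 kept without either. UGT71C1 (AT2G29750) stood at 115 and 122 in phloem and 1358, 2280 and 1287 in cortex. UGT74D1 (AT2G31750), which can glucosylate auxin metabolites, stood at 177 and 135 against 1644, 1326 and 1024, lower at -2.95 (SE 0.27, limma adjusted p = 8.93e-05). UGT84A1 (AT4G15480), which glucosylates phenylpropanoid acids, was nearly dark in phloem at 1.68 and 1.47 and varied in cortex at 373, 152 and 71.8.

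UGT76B1 (AT3G11340), which acts on immune signals, stood at 326 and 431 in phloem and 2933, 3646 and 3303 in cortex. Its difference of -3.08 had an SE of 0.71, the xylem arrays that enter the spread reading 367, 30 and 192, and the call was lost without phloem replicate 1 (adjusted p = 0.0871) or 2 (adjusted p = 0.0645). The exception among higher genes was UGT74F1 (AT2G43840), which can glucosylate salicylic acid, at 107 and 141 against 4.84, 3.74 and 3.15, higher by 2.80 (SE 0.23), with a xylem mean of 819. UGT71C3 and UGT73D1 also passed with all arrays and lost the call in 5 and 12 of the 20 alternative settings. Both lost it after quantile normalization, after spike-in scaling and when either phloem array was left out.

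Other enzymes of small-molecule metabolism were mixed, and their counts stand beside 11.7% of all genes higher and 12.5% lower. Of 25 cytochromes P450 4 were higher and 6 lower, and 1 and 4 of these were kept without either phloem array. CYP71B34 (AT3G26300) stood at 43.9 and 43.5 in phloem and 479, 502 and 396 in cortex, lower at -2.98 (SE 0.24, limma adjusted p = 3.58e-05). CYP84A4 (AT5G04330) and CYP71B26 (AT3G26290) were lower at -2.05 (SE 0.23) and -2.22 (SE 0.34), and CYP78A9 (AT3G61880) was higher by 2.30 (SE 0.44).

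Aldehyde dehydrogenases oxidise reactive aldehydes to acids. Of 8 measured 5 were lower and none higher as deposited (12.5% of all genes were lower), but 1 was higher after trimmed-mean scaling, with 64 added, with the filter on dim probe sets and without the intensity trend, and 3 calls were kept without either phloem array. ALDH2C4 (AT3G24503), which makes ferulic and sinapic acid, stood at 667 and 677 in phloem and 2533, 2424 and 2112 in cortex, lower at -1.78 (SE 0.15, limma adjusted p = 6.12e-05). ALDH7B4 (AT1G54100) and ALDH10A8 (AT1G74920) were lower at -1.19 (SE 0.15) and -1.05 (SE 0.20). ALDH10A9 and ALDH22A1 lost the call without phloem replicate 2 (adjusted p = 0.253 and 0.055), and ALDH22A1 also without phloem replicate 1 (adjusted p = 0.0793).

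Jacalin-related lectins bind sugars. JAL22 (AT2G39310) and JAL33 (AT3G16450) were lower at -2.87 (SE 0.36) and -1.89 (SE 0.18), JAL33 at 718 and 602 against 2302, 2882 and 2320. The glutaredoxin GRXC2 (AT5G40370), which reduces disulphides with glutathione, stood at 3629 and 3792 in phloem and 859, 552 and 696 in cortex, higher by 2.40 (SE 0.23). Its relative GRXC1 was at 0.61 and did not pass.

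Cell wall genes gave no single direction, and the counts of their families stand beside 11.7% of all genes higher and 12.5% lower. Of 30 expansins and xyloglucan enzymes 7 were higher and 5 lower, of which 2 and 2 were kept without either phloem array. XTH21 (AT2G18800), which cuts and rejoins xyloglucan, stood at 157 and 340 in phloem and 9.9, 3.33 and 9.45 in cortex, higher by 3.41 (SE 0.41, limma adjusted p = 0.000367). EXPA15 (AT2G03090) was higher by 1.70 (SE 0.31). EXPA8 (AT2G40610), an expansin that loosens walls, stood at 40 and 57.9 against 327, 331 and 240, lower at -2.28 (SE 0.27), and XEG113 (AT2G35610), which adds arabinose to extensins, was lower at -1.22 (SE 0.22).

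TBL proteins add acetyl groups to wall polysaccharides where their role is known. Of 22 measured 4 were higher and 7 lower, and 2 and 3 were kept without either phloem array. TBL45 (AT2G30010) stood at 2614 and 1850 in phloem and 14.3, 29.3 and 20 in cortex, and TBL28 (AT2G40150) was higher by 1.35 (SE 0.20). TBL37 (AT2G34070) stood at 301 and 323 against 3060, 3073 and 3683, lower at -3.32 (SE 0.21), and TBL41 (AT3G14850) at -2.63 (SE 0.29). The xylem mean of TBL37 was 4418, so phloem was the lowest of the populations, while that of TBL41 was 32.7.

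Endoglucanases of the GH9B class cut cellulose and related glucans. GH9B8 (AT2G32990) stood at 1537 and 1078 in phloem and 3.23, 19 and 41.5 in cortex, higher by 5.27 (SE 0.44), and GH9B6 (AT1G23210) by 2.13 (SE 0.16). GH9B13 (AT4G02290), at 552 and 430 against 1917, 1713 and 1947, was lower at -1.89 (SE 0.21, limma adjusted p = 0.000245). The pectin methylesterase PMEPCRF (AT5G53370) was lower at -1.76 (SE 0.22), at 557 and 651 against 2077, 2183 and 1996.

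Of 41 proteases 13 were higher and 5 lower (11.7% and 12.5% of all genes were) and 23 did not pass, with a median of 0.29. Of these calls 6 and 3 were kept without either phloem array, while after spike-in scaling 9 were higher and 7 lower. Of the 13 higher genes 9 were among the 29 serine carboxypeptidase-like (SCPL) genes measured. The vacuolar processing enzyme BETA-VPE (AT1G62710) stood at 255 and 226 in phloem and 30.9, 47.6 and 49.2 in cortex, higher by 2.14 (SE 0.23). GAMMA-VPE was lower at -0.75 (SE 0.19), a call lost without phloem replicate 1 (adjusted p = 0.0766) or 2 (adjusted p = 0.124). SCPL27 (AT3G07990), at 152 and 130 against 664, 765 and 636, was lower at -2.16 (SE 0.16). The carboxypeptidase-like scpl48 (AT3G45010) was higher by 1.45 (SE 0.20) and had a xylem mean of 13153.

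Ubiquitin marks proteins for degradation, and conjugating enzymes pass it on to them. UBC29 (AT2G16740) stood at 2486 and 2315 in phloem and 37.1, 44 and 47.8 in cortex, higher by 5.36 (SE 0.22, limma adjusted p = 1.03e-06). UBC27 (AT5G50870) and UBC30 (AT5G56150) were higher by 1.64 (SE 0.16) and 1.16 (SE 0.16). The ubiquitin protease UBP16 (AT4G24560) was higher by 2.84 (SE 0.20). It was the only one called of 12 measured UBP genes, beside 11.7% of all genes higher and 12.5% lower.

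Autophagy carries cytoplasm to the vacuole in vesicles coated with the ubiquitin-like protein ATG8. All autophagy genes measured here except ATG3 and AT5G66930 are ATG8 genes by name, so the counts mainly describe that family. Of 11 measured autophagy genes 8 were higher in phloem, 72.7% against 11.7% of all genes, and none was lower under any scaling, filter or left-out array tried, with a median of 0.92 (0.36 after spike-in scaling). ATG8B (AT4G04620) stood at 625 and 494 in phloem and 36.8, 36.5 and 56.3 in cortex, higher by 3.29 (SE 0.25, limma adjusted p = 2.54e-05). ATG8D (AT2G05630) and the gene listed as APG8A (AT4G21980) were higher by 3.06 (SE 0.20) and 2.77 (SE 0.23), and ATG8C (AT1G62040) by 1.24 (SE 0.20).

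These 4 kept the call without either phloem array. ATG8E, ATG8G, APG8H and AT5G66930 lost theirs without phloem replicate 2 (adjusted p = 0.0661 to 0.111), and ATG8E and AT5G66930 also without phloem replicate 1 (adjusted p = 0.111 and 0.165). The conjugating enzyme ATG3, at 0.05, did not pass, nor did ATG8F and ATG8H. Beside these values, the xylem mean was 1034 for ATG8D, between the phloem arrays, and 1406 for APG8A, between cortex and phloem, while that of ATG8B was 88.1.

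**Figure D4:**
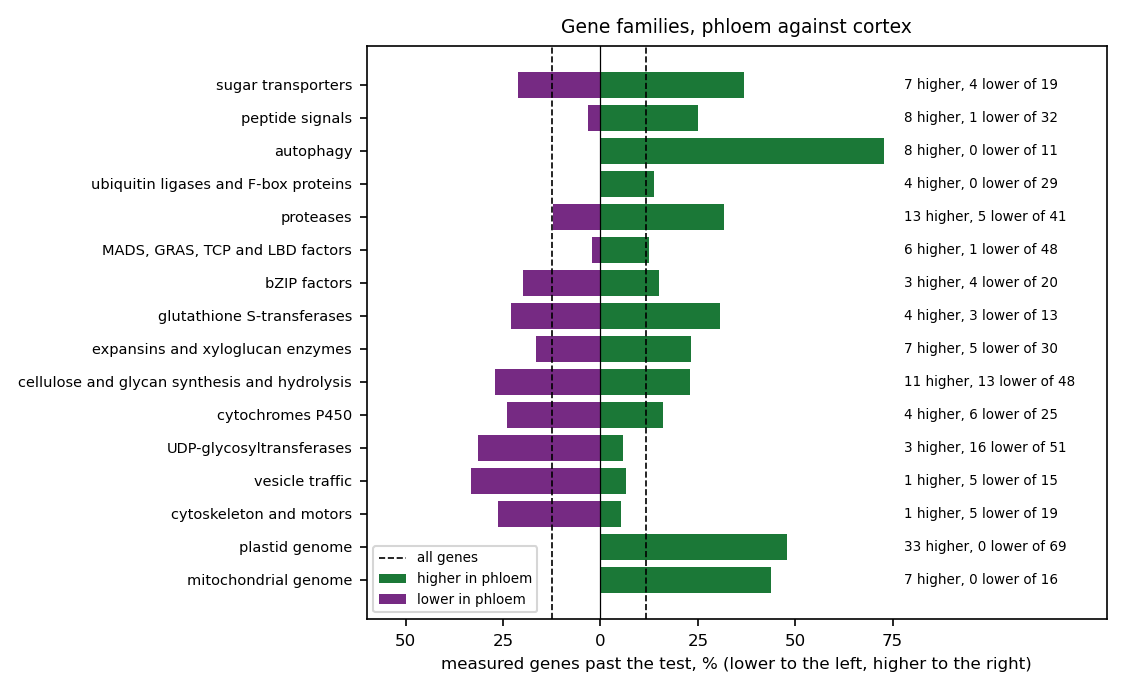
Share of measured genes higher (green, right) and lower (purple, left) in phloem for 16 gene groups, in percent, with the counts printed beside each bar. Dashed lines mark the shares among all 13355 genes, 11.7% higher and 12.5% lower. Autophagy, with 8 of 11 and mostly ATG8 genes, and the plastid genome, with 33 of 69, reach farthest to the right.

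Of 69 measured genes of the plastid genome 33 were higher (47.8% against 11.7% of all genes) and none lower as deposited. Their median was 0.77. After spike-in scaling, however, 4 were lower and 22 higher, and after median centring 1 was lower and 30 higher. A gene was also lower when phloem and cortex arrays were fitted alone or xylem replicate 1 was left out. Of the 33 calls 24 were kept without either phloem array. The highest medians by complex were those of the plastid's own expression machinery, 1.47 over 4 RNA polymerase genes and 1.36 over 15 genes for ribosomal proteins. The RNA polymerase subunit gene rpoC1 had a mean of 865 in phloem and 125 in cortex, higher by 2.64 (SE 0.24), and rpoC2 was higher by 1.98 (SE 0.31). Among the RNA polymerase genes 3 were higher, and among those for ribosomal proteins 11.

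The ribosomal protein gene rpl14 stood at 930 and 776 in phloem and 200, 114 and 168 in cortex, higher by 2.32 (SE 0.23, limma adjusted p = 0.000132). Among the photosynthetic complexes the median was highest for ATP synthase, 0.91 over 6 genes, of which 4 were higher. It was 0.53 over 6 genes of the cytochrome b6f complex, of which 1 was higher, 0.51 over 10 genes of the NADH dehydrogenase-like complex, of which 2 were, 0.43 over 5 photosystem I genes, of which 2 were, and 0.14 over 15 photosystem II genes, of which 4 were. Within photosystem II, psbN and psbK were higher by 1.52 (SE 0.28) and 1.44 (SE 0.25), while psbA, psbC and psbD lay between -0.09 and -0.01.

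Of 9 measured photosynthesis genes of the nucleus 3 were lower (12.5% of all genes) and none higher, with a median of -0.73, and 1 was kept without either phloem array. That gene was RCA (AT2G39730), rubisco activase, at 98.5 and 115 in phloem and 391, 655 and 417 in cortex, lower at -2.00 (SE 0.31, limma adjusted p = 0.00158). PSBY and PSBW were lower with all arrays and lost the call in 7 and 11 of the 20 alternative settings. Both lost it with 1 added, after trimmed-mean scaling and when either phloem array was left out. The plastid thioredoxin gene TRXF2 was lower at -1.39 (SE 0.28), a call lost without phloem replicate 1 (adjusted p = 0.0628). AT1G74470, also named geranylgeranyl reductase, an enzyme of chlorophyll and vitamin E synthesis, was lower at -1.78 (SE 0.25).

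Of 16 measured genes of the mitochondrial genome 7 were higher and none lower, with a median of 0.86, but the count of higher genes ran from 2, after spike-in scaling, to 11, when the 5 phloem and cortex arrays were fitted alone, and 2 were kept without either phloem array. These were nad4, a subunit gene of complex I, at 1648 and 2253 in phloem and 673, 285 and 530 in cortex, higher by 2.01 (SE 0.37, limma adjusted p = 0.00394), and orfX, higher by 0.97 (SE 0.18), a call lost after spike-in scaling. Of 6 nuclear genes of mitochondrial respiration measured, 2 genes of succinate dehydrogenase were lower and none was higher as deposited. Without cortex replicate 1, 1 was higher. For these genes and the mitochondrial genome, the shares among all genes were 12.5% lower and 11.7% higher. SDH2-1 (AT3G27380) stood at 1587 and 1296 in phloem and 3457, 3015 and 2705 in cortex, lower at -1.08 (SE 0.19), and SDH1-1 was lower at -0.95 (SE 0.19), a call lost without phloem replicate 2 (adjusted p = 0.069). NDB4 (AT2G20800), an alternative NADH dehydrogenase of mitochondria encoded in the nucleus and not on that list, stood at 464 and 284 against 3.82, 5.92 and 1.95, higher by 4.26 (SE 0.31).

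**Figure D5:**
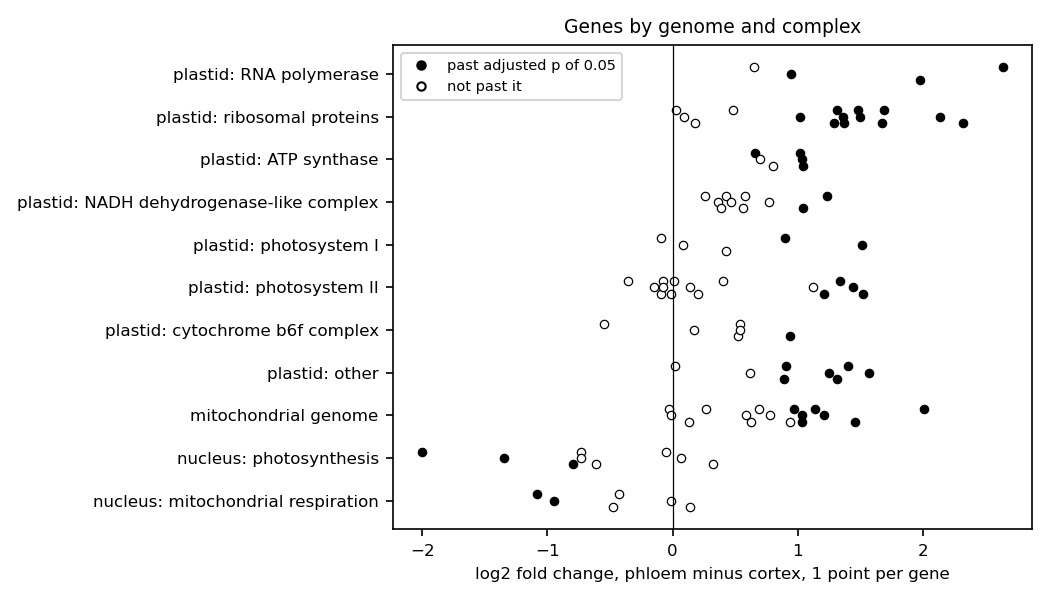
Log2 fold change, phloem minus cortex, of each measured gene of the plastid genome by complex, of the mitochondrial genome, and of nuclear genes for photosynthesis and respiration. Filled points passed an adjusted p of 0.05. Filled points lie to the right of 0 for the organelle genomes and to the left for the nuclear genes.

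Of 19 cytoskeleton and motor genes 1 was higher and 5 lower (12.5% of all genes were lower) and 13 did not pass, with a median of -0.27, and 2 of the lower calls were kept without either phloem array. These were beta-tubulins. TUB1 (AT1G75780) stood at 452 and 476 in phloem and 4273, 4293 and 4161 in cortex, lower at -3.15 (SE 0.20, limma adjusted p = 1.01e-05). TUB5 (AT1G20010) stood at 361 and 355 against 3538, 3240 and 3178 and was lower by as much. Among other tubulins TUA6 and TUB9 were lower at -1.18 (SE 0.22) and -0.80 (SE 0.21), calls lost without phloem replicate 2 (adjusted p = 0.0548 and 0.125), that of TUB9 also without phloem replicate 1 (adjusted p = 0.0814). TUB6 at -0.82 and TUB7 at 0.32 did not pass, and TUA1 was higher by 0.99 (SE 0.21), a call lost without phloem replicate 1 (adjusted p = 0.0726) and after spike-in scaling. TRM15 (AT4G00440), of a family that targets microtubule regulators, was higher by 4.70 (SE 0.32), at 1487 and 966 against 20.4, 37.6 and 36.5.

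The exocyst tethers secretory vesicles to the plasma membrane. Among 15 vesicle traffic genes 5 were lower (12.5% of all genes), all of them exocyst subunits, 1 was higher and 9 did not pass, with a median of -0.40. SEC6 (AT1G71820) stood at 240 and 189 in phloem and 485, 521 and 416 in cortex, lower at -1.09 (SE 0.18, limma adjusted p = 0.002), and SEC15B (AT4G02350) was lower at -1.03 (SE 0.17). These 2 kept the call without either phloem array, and EXO84B, SEC5A and SEC10 lost theirs without phloem replicate 2. EXO84B also lost it without phloem replicate 1 or cortex replicate 1 or 2. SEC15A at -0.14 and SEC5B, close to 0, did not pass.

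Prenylated Rab acceptor genes, which act in vesicle traffic, counted 4 lower (12.5% of all genes) and none higher of 11 as deposited. After quantile normalization or without cortex replicate 1, 1 was higher. PRA1.B6 (AT5G07110) stood at 754 and 613 in phloem and 2314, 2216 and 1603 in cortex, lower at -1.55 (SE 0.26, limma adjusted p = 0.0023), and was the member kept without either phloem array. PRA1.B1, PRA1.B4 and PRA8 lost the call without phloem replicate 2 (adjusted p = 0.0805 to 0.192).

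In some lists few genes were called, and their counts stand beside 11.7% of all genes higher and 12.5% lower. Among 9 plant U-box ubiquitin ligases (PUB) 1 was lower, PUB22 at -1.18, a call lost without phloem replicate 2. Among 29 ubiquitin ligases, F-box proteins and related genes 4 were higher, with UBC29 and UBP16 among them, and none lower as deposited. After spike-in scaling 12 of the 29 were lower, as were 3936 of all 13355 genes. ZAT10 (listed as STZ), a stress-induced factor on the list for protoplasting and wounding and its only measured member of 10, stood at 3949 and 3815 in phloem and 1797, 2983 and 2676 in cortex and did not pass at 0.67 (SE 0.29, adjusted p = 0.136).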

How the data were processed

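The authors deposited 1 table of array intensities per sample, made with the Affymetrix algorithm MAS5, per the submitters' processing notes; its version and scaling target were not given in the sources used here, nor were detection calls. All 8 arrays and the intensity columns of their tables were used. Without counts, precision rests on the number of arrays, 2 phloem, 3 cortex and 3 xylem.

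The 64 control probe sets were not tested. Log2(intensity + 16) of the other 22746 was fitted with limma 3.58.1 in R 4.3.3, with 1 mean per population over all 8 arrays and eBayes with an intensity trend, and p-values were adjusted by Benjamini-Hochberg over all 22746. The fit was tested on simulated data. Tables and figures were made with Python 3.11.15, pandas 2.3.3 and matplotlib 3.10.9.

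Of all probe sets 13513 were listed with 1 gene, 503 with several and 8730 with none in the annotation used here. Of those with 1 gene, 13436 matched RefSeq (assembly TAIR10.1). These gave 13355 genes, each represented by its probe set with the highest mean over the phloem and cortex arrays, and 1557 had a symbol other than the locus tag. A gene not named here may be measured by an unlisted probe set. Some 1061 probe sets have identifiers that mark possible binding to related transcripts.

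Members and gene lists were chosen with earlier results of these data known. Lists by symbol stem, for stems with at least 8 genes, were added after the annotation was seen, as was the split of the plastid genes by complex. Genes were named from probe sets with 1 gene, past the threshold and without overlap between phloem and cortex arrays: per direction the 15 largest differences with a symbol, the 12 largest with only a locus tag, the 8 largest whose lower population mean exceeded the median probe set, and the 3 largest of each list by name pattern, plus every measured marker. Other named genes, among them further family members, the non-passing relatives and those plotted as opposite relatives, were chosen after their values were seen.

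Alternatives were other added constants (1 and 64), a filter on dim probe sets, 4 other scalings (quantile, median, a 2% trimmed mean and 18 spike-in controls), phloem and cortex arrays alone, no trend, no shared probe sets, limma's test against 2-fold, replicate number as a block, and each array left out. The labels do not say whether replicate numbers pair arrays. Phloem and cortex arrays of the same number deviated from their means with correlations of -0.0012 and -0.0305. The deviations of the 2 phloem arrays mirror each other, so these values cannot show whether arrays were paired. Results on a few items are not reported here.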

Additional observations from a re-analysis of the deposited data

How the results depend on the processing

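The number of called probe sets, 6140 as reported, was 9363 after spike-in scaling and 1371 when tested against a 2-fold difference. Higher probe sets, 2781 as reported, numbered 916 in the test against 2-fold, and lower ones, 3359 as reported, numbered 7457 after spike-in scaling and 455 in the test against 2-fold. Lower probe sets of at least 2-fold, 2140 as reported, numbered 4875 after spike-in scaling. Leaving out 1 array at a time gave 3606 to 7489 calls, 1922 to 3370 higher and 1684 to 4119 lower, and 3233 to 4423 of at least 2-fold, 1738 to 2179 higher and 1475 to 2244 lower. The total was lowest without phloem replicate 2 (3606), as was the number lower (1684), which was 2173 without phloem replicate 1. With the replicate number as a block, which is not known to pair the arrays, 5579 were called, 2545 higher and 3034 lower, 4248 of at least 2-fold. The share of calls that were higher moved by over 10 percentage points in 3 settings, given in the report.

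Of 192 genes named by the rule 182 passed, and none of these reversed under the 20 alternatives. Of these 182, 82 lost the call at least once: 82 in the test against 2-fold, 43 without phloem replicate 2, 37 without phloem replicate 1, 16 after spike-in scaling, 13 with 1 added and 10 with the replicate block. The causes were not tested. With 2 phloem arrays and no detection calls, small differences and dim genes are the least secure, and folds of genes near the floor depend on the added 16.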

Other observations

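Neighbouring genes were set side by side as a description chosen after the values were seen. Neighbours were protein-coding genes next to each other on a chromosome in RefSeq, and a gene not measured broke a pair or run. Of 5849 adjacent pairs with both genes measured, 77 were both higher by at least 2-fold in phloem, 62 both lower and 68 opposite. In 11 runs of 3 the direction was shared. Singly, 9.16% of all probe sets were at least 2-fold higher and 9.41% lower. These shares are by probe set and include those listed with no gene, while the pairs were counted by gene. AT1G62045, between the autophagy gene ATG8C and AT1G62050, stood at 1869 and 1615 in phloem and 96.1, 49.7 and 58.6 in cortex, a difference of 4.42 (SE 0.25, limma adjusted p = 5.44e-06), and its neighbours were higher by 1.24 and 1.94. AT1G75280, AT1G75290 and AT1G75300 were higher by 3.95, 3.76 and 1.80, the first at 6659 and 5553 against 334, 463 and 350. AT5G04980 was higher by 3.13 (SE 0.31) beside AT5G04970 and AT5G04960 at 1.47 and 1.64.

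Runs on the cortex side included the transporter gene AT3G21670 at -4.86 with AT3G21680 at -2.22 and AT3G21690 at -1.80. AT3G26470, at 116 and 117 in phloem and 668, 1043 and 988 in cortex, was lower at -2.76 (SE 0.22), with AT3G26460 and AT3G26450 at -1.91 and -1.74. The run of AT5G05880, AT5G05890 and AT5G05900 was lower at -1.93, -1.69 and -3.28. Related neighbours can share probe sequence, which was not examined here.

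Genes of other groups were also far apart. The heat shock gene Hsp70-2 stood at 1775 and 1414 in phloem and 110, 121 and 127 in cortex, higher by 3.57. The peroxidase gene AT5G66390, also named PRX72, stood at 701 and 903 against 59.7, 150 and 123, higher by 2.75. Of 20 BGLU genes, beta-glucosidases that free compounds from their sugars, 5 were higher and 2 lower (11.7% and 12.5% of all genes were). BGLU15 (AT2G44450), at 2589 and 1821 against 233, 380 and 498, was higher by 2.56.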
